A study of Mus musculus with 18 samples.

Results

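Lysosomal, vacuolar ATPase and autophagy genes were followed across 18 arrays of mouse embryonic fibroblasts. They comprise every gene whose symbol starts with Atp6v0 or Atp6v1, the subunits of the vacuolar ATPase (21 genes), and 26 listed genes of lysosomal enzymes, lysosomal membrane proteins, autophagy proteins and the transcription factors that control them. Together they make 47 of the 19937 genes that have a probe set of their own on the array, and the choice rests on gene names and functions, not on a threshold of measured values. Each gene is read from its brightest probe set, judged by the mean of all arrays.

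Lysosomes are acidic compartments in which hydrolases break down proteins, lipids and sugars. The vacuolar ATPase acidifies them: its cytosolic V1 part burns ATP and its membrane-bound Vo part moves protons. Autophagy wraps cytoplasm in a double membrane and delivers it to lysosomes. TFEB, TFE3 and MITF, the MiT/TFE factors, turn on many of these genes by binding E-boxes of the sequence CACGTG near their start sites. The kinase complex mTORC1, which works on the lysosome surface, phosphorylates these factors and holds them in the cytoplasm when nutrients are plentiful, and it also restrains the start of autophagy.

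The cells are of strain 129sv/ev, and 3 arrays numbered 1, 2 and 4 were made for each of 6 conditions. Cells of a wild-type Nfat5 line (WT) stayed in isotonic or went into hypertonic medium, each without drug or after pretreatment for 1 h with 100 nM Torin1, which blocks the kinase mTOR. Cells of a line lacking Nfat5 (KO) had isotonic or hypertonic medium without Torin1, and no KO cells received the drug. Nfat5 encodes a transcription factor that drives osmolyte uptake and synthesis when salt rises. The titles give 300 and 500 for the media, with no unit, and the labels give no time for the hypertonic exposure. Each genotype is 1 line, so a difference between genotypes and a difference between lines cannot be told apart. The labels do not say whether the 3 arrays per group stem from separate cultures, so the p-values refer only to the spread between arrays, which may be technical.

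The title of isotonic KO array 1 says KO while its genotype label says wild-type. It was kept with the KO group, and results that rest on it are also given with it left out or counted as WT. Its own values lie with the other isotonic KO arrays where the lines are far apart. Thy1, a surface marker of fibroblasts, read 10.64 on it, 11.05 and 10.69 on the other isotonic KO arrays and 6.70 to 7.14 on isotonic WT arrays. The GTPase gene Rragb read 5.72 on it, 5.06 and 5.50 on the others and 8.81 to 9.20 on isotonic WT arrays. Nfat5 itself read 9.72 to 9.83 in isotonic KO arrays and 9.94 to 10.13 in isotonic WT arrays, without overlap, and 9.73 to 10.22 against 10.18 to 10.77 in hypertonic medium, where the groups overlap. The sources used here do not say whether its probes lie in the deleted part, so these levels check the genotype only in part. Array medians lay between 6.96 and 7.13 on the log2 scale. A gene was tested if its highest group mean exceeded 5.86, the 30th percentile of all values, which left 15711 genes. All 10 fibroblast markers passed this level, with a list mean per array of 11.36 to 11.89 in WT groups and 12.26 to 12.56 in KO groups. Of the markers of other cells 10 of 12 for macrophages, 6 of 7 for osteoclasts, 3 of 6 for melanocytes, 6 of 6 for epithelium and 3 of 5 for endothelium passed it, with list means per array of 6.27 to 6.65, 6.49 to 7.03, 5.92 to 6.23, 6.47 to 7.22 and 5.51 to 6.44. Among the defining ones, Csf1r reached 9.36, Itgb3 10.24, Cdh1 8.80 and Tek 9.09, while Ptprc, Adgre1, Dcstamp, Tyr, Tyrp1 and Dct lay below it in every group.

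Promoters of the members were read first for the E-box that the MiT/TFE factors bind. RefSeq windows of 300 bases on GRCm38.p6, from 250 bases before a gene's start to 50 after it, were at hand for 38 of the 47 members. The letters CACGTG, which read the same on both strands, occurred in 13 of these 38 members (34.2%) and in 8.09% of all 27025 genes with a window. TCACGTG on either strand, which overlaps the former and is part of the motif found in many lysosomal promoters, occurred in 10 members (26.3%) and in 4.29% of all genes. A match is a description of the letters and not of binding. The 3 members below that rose in hypertonic KO cells are shown with Atg7, which fell there, and with Lamp1 and Mcoln1, which carry E-boxes and did not pass there. Capitals mark CACGTG, and each sequence is written 5′ to 3′ along its gene.
Gla, chrX:134601174-134601252, minus strand: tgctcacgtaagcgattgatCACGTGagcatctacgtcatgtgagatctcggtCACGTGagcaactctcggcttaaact
Atp6v0b, chr4:117887330-117887385, minus strand: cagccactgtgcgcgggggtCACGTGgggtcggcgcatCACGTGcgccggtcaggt
Atp6v1a, chr16:44139365-44139410, minus strand: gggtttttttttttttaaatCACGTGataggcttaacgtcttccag
Atg7, chr6:114670944-114670989, plus strand: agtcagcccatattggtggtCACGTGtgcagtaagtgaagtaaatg
Lamp1, chr8:13159080-13159160, plus strand: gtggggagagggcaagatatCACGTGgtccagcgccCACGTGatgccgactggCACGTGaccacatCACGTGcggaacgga
Mcoln1, chr8:3500428-3500499, plus strand: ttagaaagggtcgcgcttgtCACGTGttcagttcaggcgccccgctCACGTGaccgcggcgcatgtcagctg

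Of the 12 members that rose in hypertonic KO cells 11 have a window, and 3 of these hold an E-box. Of the 5 that fell 3 have a window, and 1 holds an E-box. Lamp1 carries 4 boxes within 81 bases, and its level did not pass in any of the 9 comparisons on the values as deposited. These stretches lie before the RefSeq start site of each gene, from base -247 for Gla to base -1 for Atp6v0b and Lamp1.

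Of the 47 members 45 passed the level for testing. Atp6v0d2 and Atp6v1g3, Vo and V1 subunits found in specialised cells such as osteoclasts and kidney intercalated cells, stayed below it in every group, with their highest group means at 4.99 and 5.45. Changes are log2 differences between means of 3 arrays, ± the standard error that limma gives, and a member was called at a limma adjusted p below 0.05 over all 15711 genes. The median member's 95% interval reached 0.28 to either side of its change, so smaller changes were not resolvable for most members. In RNA from whole cultures, less RNA per cell and fewer cells of a kind cannot be told apart.

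**Figure D1:**
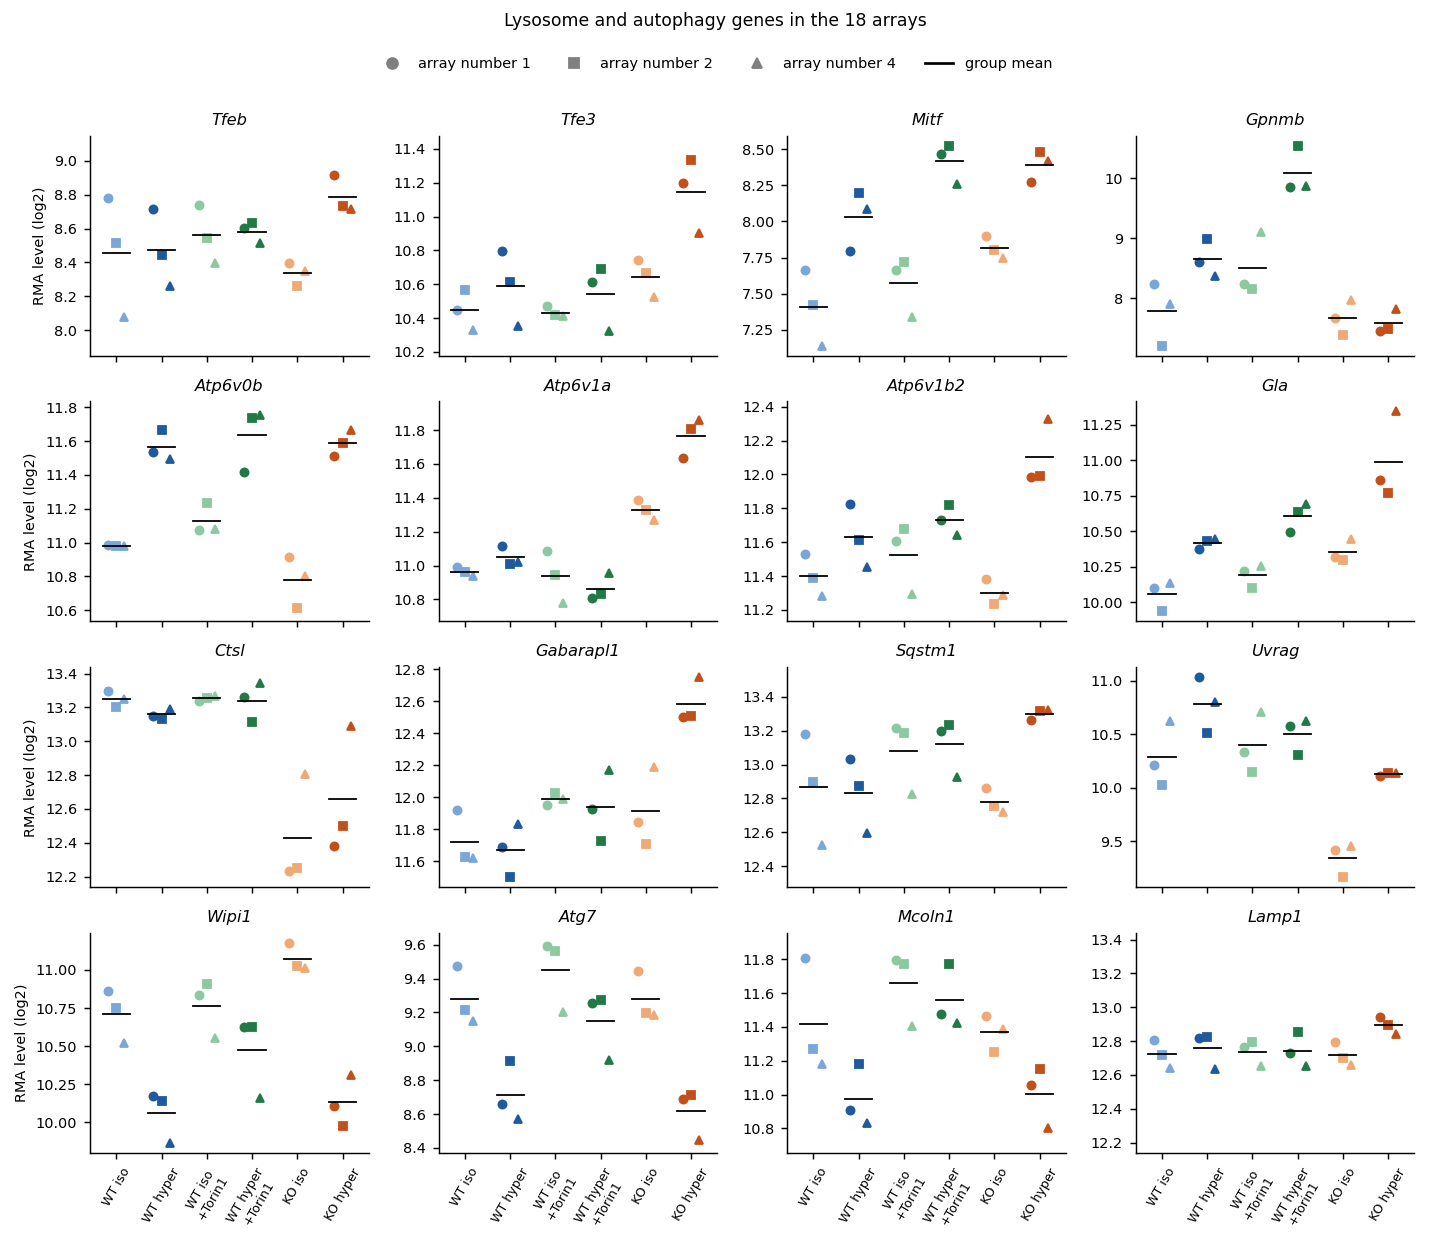
RMA levels (log2, y axis, its own scale in each panel) of 16 members in the 6 groups, with 1 point per array, its shape giving the array number, and a line at the group mean of 3 arrays. Gabarapl1, Tfe3 and Atp6v1a lie highest in the 3 hypertonic KO arrays, Gpnmb in the 3 hypertonic WT arrays with Torin1, and Uvrag lies lowest in the 3 isotonic KO arrays.

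The first comparison asks how WT cells respond to hypertonic medium. Atp6v0b, a proteolipid subunit of the proton-carrying Vo ring, and Mitf rose, and the autophagy genes Wipi1 and Atg7 fell. These 4 calls among 45 members (8.89%) stand beside 8.24% of all tested genes, of which 3.94% were higher and 4.30% lower. The median change was 0.02 over the members and 0.02 over all genes. With the array numbers as a block, 10 members were called, 5 in each direction, beside 15.0% of all genes (7.40% higher and 7.63% lower).

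Atp6v0b read 10.98, 10.98 and 10.98 in isotonic and 11.54, 11.67 and 11.49 in hypertonic WT arrays 1, 2 and 4. The groups lie far apart, and the change was 0.59 ± 0.10 (limma adjusted p = 0.00374). It was called without any 1 array. Mitf read 7.67, 7.42 and 7.14 against 7.80, 8.20 and 8.09, without overlap, a rise of 0.62 ± 0.14 (limma adjusted p = 0.0153). Leaving out isotonic WT array 4 (0.0663) or hypertonic WT array 2 (0.0768) ended that call. It was also lost with isotonic KO array 1 counted as WT (0.0608). The other probe set of Mitf lies near the bottom of the scale at a mean of 3.44 and gave -0.09, and the mean of both gave 0.26 (limma adjusted p = 0.104). Tfe3 (0.14 ± 0.13) and Tfeb (0.02 ± 0.15) did not pass.

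Wipi1, whose product reads the lipid mark of a forming autophagosome, read 10.86, 10.75 and 10.52 in isotonic and 10.17, 10.14 and 9.86 in hypertonic WT arrays. The groups do not overlap, and the change was -0.65 ± 0.15 (limma adjusted p = 0.013, and 0.0596 without isotonic WT array 1). Atg7, the enzyme that activates ubiquitin-like proteins of the LC3 family, read 9.47, 9.22 and 9.15 against 8.66, 8.91 and 8.57. It fell by 0.57 on the log2 scale, with a standard error of 0.14 (limma adjusted p = 0.0236). Atg7 no longer passed when isotonic WT array 1 (0.0999) or array 2 (0.0512), or hypertonic WT array 1 (0.0946) or array 4 (0.0569), was left out. Fitted on the 6 arrays of this comparison alone, of the 4 calls only that of Atp6v0b passed, beside 1.70% of all genes. Without the arrays of number 4 there were 13 calls, beside 21.2% of all genes.

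With the block, 6 further members passed in WT cells. Among them the enzyme gene Gla (0.36, limma adjusted p = 0.0293), the autophagy gene Uvrag (0.50, 0.0136) and the Vo subunit Atp6v0a4 (0.42, 0.0145) were higher. Mcoln1, the calcium channel of the lysosome (-0.44, limma adjusted p = 0.0441), Map1lc3a, an LC3 protein of the autophagosome membrane (-0.41, 0.00595), and the Vo subunit Atp6v0d1 (-0.44, 0.00714) were lower. Without the block the 6 had adjusted p from 0.0665 to 0.158. Atp6v0a4 lay close to the level for testing in these arrays, at 5.94 to 6.91.

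**Figure D2:**
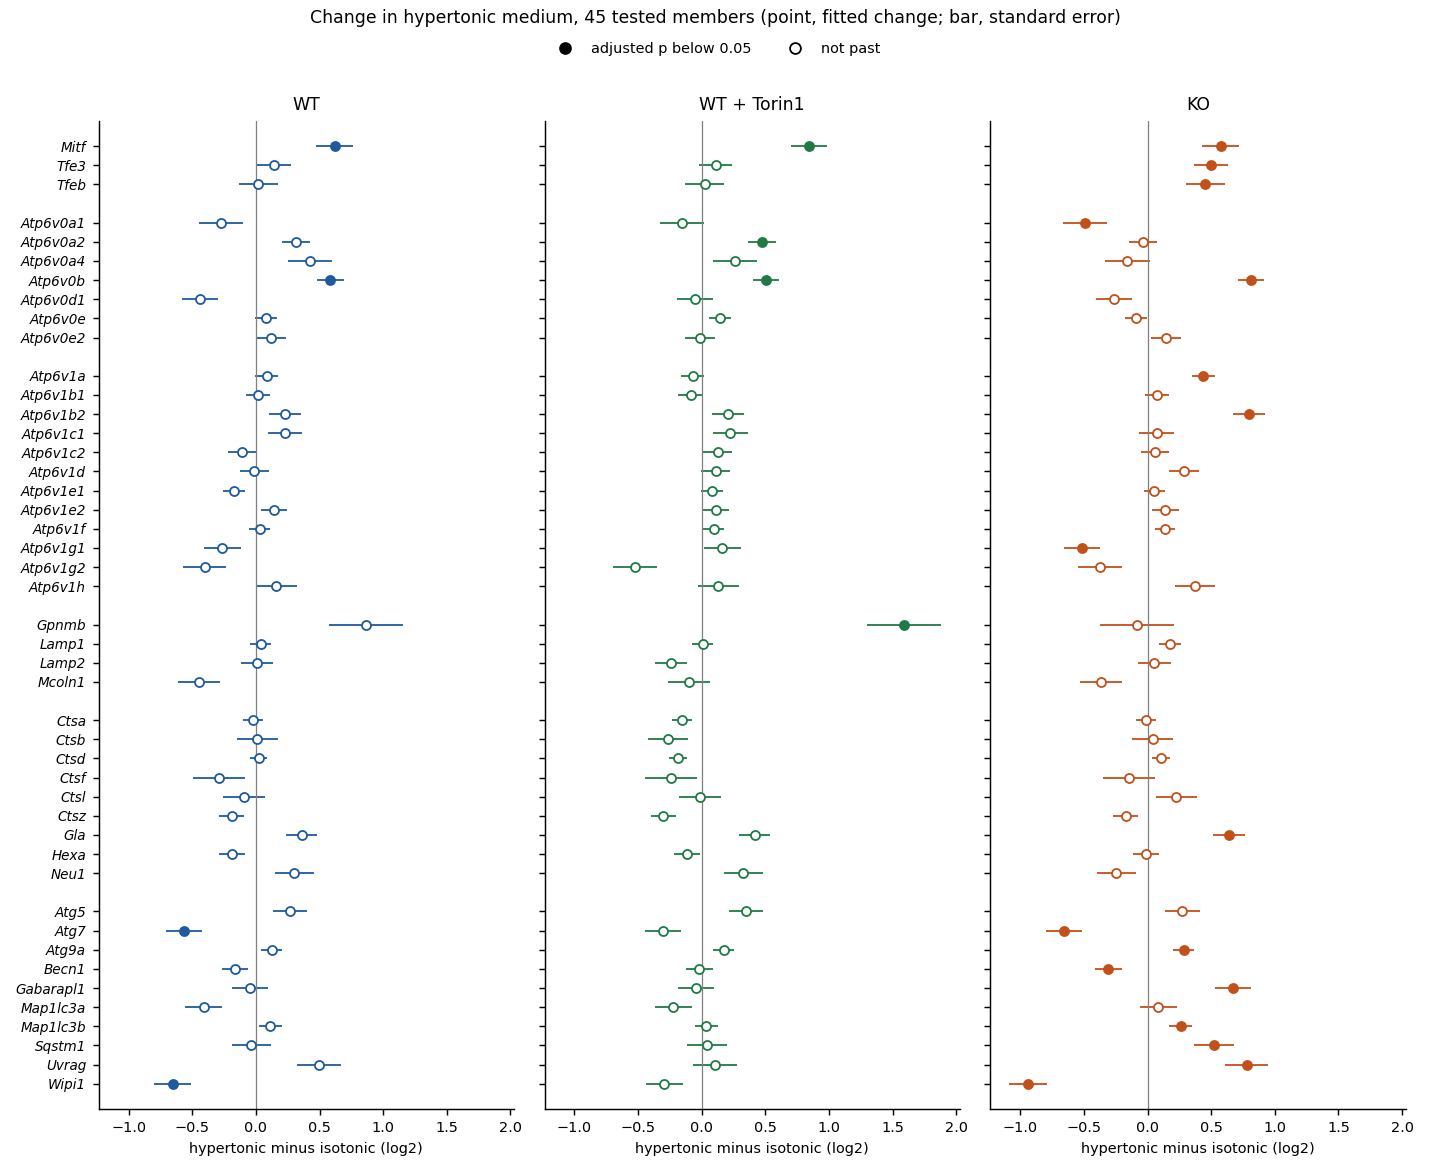
Hypertonic minus isotonic change (log2, x axis) of the 45 tested members, grouped by role, in WT cells, WT cells with Torin1 and KO cells. Points are fitted changes and bars standard errors over 3 arrays per group, and filled points passed at a limma adjusted p below 0.05. WT cells have 4 filled points, Torin1-treated WT cells 4 and KO cells 17.

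In WT cells that had received Torin1, hypertonic medium raised Gpnmb, Mitf, Atp6v0b and Atp6v0a2. All 4 calls were increases, and they are 8.89% of the members beside 3.37% of all genes (1.65% higher and 1.72% lower). Fitted on the 6 arrays of this comparison alone, none of the 4 passed, with limma adjusted p from 0.0582 to 0.122. Only 0.146% of all genes passed in that fit. Gpnmb, a glycoprotein of lysosomal and melanosomal membranes, showed the widest change of any member here. It read 8.23, 8.16 and 9.11 in isotonic and 9.85, 10.54 and 9.87 in hypertonic arrays with Torin1. The lowest hypertonic array lies above the highest isotonic one, and the rise was 1.59 ± 0.29, or 3.01-fold (limma adjusted p = 0.00814, and 0.0529 without hypertonic Torin1 array 2). Without Torin1 the change of Gpnmb was 0.86 ± 0.29 (limma adjusted p = 0.0817), from 8.24, 7.21 and 7.91 to 8.60, 8.99 and 8.37.

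Since macrophages, osteoclasts and melanocytes carry much Gpnmb, their markers were read beside it. The mean of the 12 macrophage markers lay at 6.29 to 6.46 in isotonic and 6.44 to 6.56 in hypertonic WT arrays with Torin1. Of these the receptor gene Csf1r lay at 7.69 to 7.88 and 8.08 to 9.36. Cd68 of the same list went the other way, at 8.22 to 8.39 and 7.70 to 8.14. The osteoclast marker Itgb3 read 9.04, 9.22 and 8.28 in isotonic and 9.99, 10.12 and 8.85 in hypertonic arrays with Torin1. The mean of the 7 osteoclast markers lay at 6.70 to 6.74 and 6.77 to 6.93, and that of the 6 melanocyte markers at 5.99 to 6.18 and 5.95 to 6.23. In KO cells Csf1r lay at 7.42 to 7.44 in isotonic and 7.08 to 7.54 in hypertonic medium. The part of such cells in the change of Gpnmb was not tested.

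Mitf rose by 0.84 ± 0.14 with Torin1 (limma adjusted p = 0.00481), from 7.67, 7.72 and 7.34 to 8.46, 8.52 and 8.26, and was called without any 1 array. With the mean of its probe sets the rise was 0.47 (limma adjusted p = 0.0134). Atp6v0b rose by 0.51 ± 0.10 (limma adjusted p = 0.0142). That call was lost without isotonic Torin1 array 1 (0.0669) or array 4 (0.053), without hypertonic Torin1 array 2 (0.0801), or without all arrays of number 4 (0.0594). Atp6v0a2, a large Vo subunit that steers the pump to Golgi and endosomes, read 10.35, 10.35 and 10.38 in isotonic and 10.87, 10.90 and 10.73 in hypertonic Torin1 arrays, which do not overlap. It rose by 0.47 ± 0.11 (limma adjusted p = 0.0259). Its call was lost without isotonic Torin1 array 1 (0.0882), 2 (0.0769) or 4 (0.0678), or without hypertonic Torin1 array 1 (0.0773) or 2 (0.12). The other probe set of Atp6v0a2 gave 0.01, and the mean of the 2 gave 0.24 (limma adjusted p = 0.193). With the block Gla passed as well (0.42, limma adjusted p = 0.024), which made 5 calls beside 7.86% of all genes.

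No member passed for the effect of Torin1 in isotonic WT cells, where limma called 0.0% of all genes and the lowest member adjusted p was 1.00. At an unadjusted p below 0.05 there were 2 members. In hypertonic WT cells 0 members were called beside 0.115% of all genes, with 9 at an unadjusted p below 0.05. The 3 that passed with the block, where 1.40% of all genes did (0.751% higher), were higher with Torin1: Gpnmb (1.44 ± 0.29 without the block, limma adjusted p = 0.0777, and 0.0327 with it), Atg7 (0.43, 0.0453 with it) and Atp6v0d1 (0.41, 0.0474 with it). Mcoln1 read 10.91, 11.18 and 10.83 without and 11.48, 11.77 and 11.42 with Torin1 in hypertonic medium, without overlap, a difference of 0.58 ± 0.17 that did not pass (limma adjusted p = 0.148, and 0.0525 with the block). Whether Torin1 changed the hypertonic effect was tested directly, and 0 members passed (0.0% of all genes, and 1 member at an unadjusted p below 0.05). For Gpnmb this difference of effects was 0.72 ± 0.41, with a 95% interval from -0.15 to 1.60. Without isotonic WT array 1, limma called 1 member for Torin1 in hypertonic medium, Gpnmb (limma adjusted p = 0.0301), and without the arrays of number 4 it called 4. The share of all genes called beside these counts is not given here. Leaving out number 4 also raised that share for the hypertonic effect in WT, from 8.24% to 21.2%.

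In KO cells 12 members rose and 5 fell in hypertonic medium, and the 17 calls are 37.8% of the members beside 30.1% of all genes. All 3 MiT/TFE factors rose, as did 5 autophagy genes, Gla, and the pump subunits Atp6v0b, Atp6v1a and Atp6v1b2. Wipi1, Atg7, Becn1, Atp6v0a1 and Atp6v1g1 fell. Increases were called for 26.7% of the members and 12.9% of all genes, decreases for 11.1% and 17.2%. The median change was 0.07 over the members and 0.02 over all genes.

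Scaling shifts these counts. With each array centred on its median, the median of all genes moved from 0.02 to 0.20 in this comparison, from 0.04 to 0.21 between the lines in hypertonic medium, and from -0.01 to 0.16 for the difference of the hypertonic effects. Members called in KO cells were then 20 higher and 2 lower, so the higher share went from 70.6% to 90.9%, as that of all called genes went from 42.9% to 70.4%. Wipi1 and Atg7 still fell, while Becn1 (-0.14, limma adjusted p = 0.28), Atp6v0a1 (-0.32, 0.128) and Atp6v1g1 (-0.35, 0.053) no longer passed. Ctsd, for one, passed there at 0.27 (limma adjusted p = 0.00961). With quantile normalization 13 were higher and 5 lower.

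Of the MiT/TFE factors, Tfe3 read 10.74, 10.67 and 10.52 in isotonic and 11.20, 11.33 and 10.90 in hypertonic KO arrays. The groups do not overlap, and it rose by 0.50 ± 0.13 (limma adjusted p = 0.00942, and 0.0544 without hypertonic KO array 2). Mitf rose by 0.57 ± 0.14 (limma adjusted p = 0.00611), from 7.90, 7.80 and 7.75 to 8.27, 8.48 and 8.42, and kept its call without any 1 array. With the mean of its probe sets the rise was 0.31 (limma adjusted p = 0.0215). Tfeb read 8.40, 8.26 and 8.35 against 8.92, 8.73 and 8.72, a rise of 0.45 ± 0.15 (limma adjusted p = 0.0346). Tfeb did not keep its call without isotonic KO array 1 (0.0597), 2 (0.102) or 4 (0.0695), or without hypertonic KO array 1 (0.123) or 2 (0.0616).

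Among the pump subunits Atp6v0b rose by 0.81 ± 0.10, or 1.75-fold, from 10.92, 10.61 and 10.80 to 11.51, 11.59 and 11.66 (limma adjusted p = 3.76e-05). Atp6v1b2 and Atp6v1a are the B and A subunits that together form the ATP-splitting head of V1. Atp6v1b2 read 11.38, 11.24 and 11.29 in isotonic and 11.98, 11.99 and 12.33 in hypertonic KO arrays, a rise of 0.80 ± 0.13 (limma adjusted p = 0.000218). Atp6v1a read 11.38, 11.33 and 11.27 against 11.63, 11.80 and 11.86, a rise of 0.44 ± 0.09 (limma adjusted p = 0.00161). These 3 subunits were separated between media in every array and called without any 1 array.

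The stalk subunit Atp6v1g1 read 10.76, 10.45 and 10.47 in isotonic and 9.92, 9.79 and 10.42 in hypertonic KO arrays, and it fell by 0.52 with a standard error of 0.14 (limma adjusted p = 0.0117). Leaving out isotonic KO array 1 (0.0643) or hypertonic KO array 1 (0.0523) or 2 (0.0711) ended that call, and the gene's other probe set gave -0.45. Atp6v0a1, a large Vo subunit, read 11.37, 11.24 and 10.94 against 10.89, 10.98 and 10.20, so the groups overlap, and it fell by 0.49 with a standard error of 0.17 (limma adjusted p = 0.0404). Its fall was 0.25 without hypertonic KO array 4 (limma adjusted p = 0.205), the lowest array. Leaving out isotonic KO array 1 (0.155) or 2 (0.104), isotonic Torin1 array 2 (0.0501) or hypertonic WT array 2 (0.0509) ended the call as well. With the block 20 members passed, beside 36.3% of all genes, and 3 of them were further subunits: Atp6v1d (0.29, limma adjusted p = 0.0464) and Atp6v1h (0.37, 0.00666) higher and Atp6v0d1 (-0.26, 0.0417) lower. The other 14 of 19 tested subunits did not pass without it.

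Of the 9 lysosomal enzymes tested in KO cells only Gla passed, beside 30.1% of all genes. Gla, the alpha-galactosidase deficient in Fabry disease, read 10.32, 10.29 and 10.44 in isotonic and 10.86, 10.77 and 11.34 in hypertonic KO arrays. It rose by 0.64 ± 0.12, or 1.56-fold (limma adjusted p = 0.000983), without overlap and without dependence on any 1 array. The differences of the cathepsins Ctsa, Ctsb, Ctsd, Ctsf, Ctsl and Ctsz, most of them proteases of the lysosome, ranged from -0.17 (Ctsz) to 0.23 (Ctsl). None of the 4 membrane genes passed. Lamp1, the main glycoprotein of the lysosomal membrane, read 12.79, 12.70 and 12.66 against 12.94, 12.89 and 12.84, a difference of 0.18 ± 0.08 (limma adjusted p = 0.138, and 0.00418 on centred arrays).

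Autophagy genes moved in both directions in KO cells, with 8 of 10 called, beside 30.1% of all genes (12.9% higher and 17.2% lower). Gabarapl1, which joins the autophagosome membrane as LC3 does, read 11.84, 11.71 and 12.19 in isotonic and 12.50, 12.51 and 12.75 in hypertonic KO arrays, without overlap. It rose by 0.67 ± 0.14, or 1.59-fold (limma adjusted p = 0.00193). Uvrag, which helps the lipid kinase complex of Becn1, rose by 0.78 ± 0.17 (limma adjusted p = 0.00271), from 9.42, 9.17 and 9.46 to 10.11, 10.13 and 10.14. Wipi1 fell by 0.94 on the log2 scale, with a standard error of 0.15 (limma adjusted p = 0.000186), from 11.18, 11.03 and 11.01 to 10.11, 9.97 and 10.31. Atg7 fell by 0.66, with a standard error of 0.14 (limma adjusted p = 0.00233), from 9.45, 9.19 and 9.19 to 8.69, 8.71 and 8.45. These 4 were called without any 1 array.

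The cargo receptor Sqstm1, which links ubiquitin-marked cargo to LC3, read 12.86, 12.75 and 12.72 in isotonic and 13.26, 13.32 and 13.32 in hypertonic KO arrays. Its rise of 0.52 ± 0.16 (limma adjusted p = 0.0182) was not called without isotonic KO array 2 (0.0519) or 4 (0.0557) or hypertonic KO array 2 (0.052). Atg9a, a membrane carrier for the growing autophagosome, rose by 0.28 ± 0.08 (limma adjusted p = 0.0167), but did not pass without isotonic KO array 2 (0.0932). Becn1 changed by -0.31 ± 0.10 (limma adjusted p = 0.0357), and lost its call without isotonic KO array 1 (0.128) or 2 (0.0882), or hypertonic KO array 1 (0.13), 2 (0.0588) or 4 (0.0516). Map1lc3b, the LC3 protein most used as an autophagosome marker, changed by 0.26 ± 0.09 (limma adjusted p = 0.0405). It did not pass when any 1 of 9 arrays was left out: isotonic KO array 1 (0.0569) or 2 (0.196), hypertonic KO array 1 (0.0695), 2 (0.0686) or 4 (0.12), array 2 of isotonic WT (0.0509) or of hypertonic WT (0.0532), isotonic Torin1 array 1 (0.0507) or hypertonic Torin1 array 2 (0.0508). Without isotonic KO array 2, 11 members in all were called, beside 25.4% of all genes. With isotonic KO array 1 counted as WT, 12 were called, beside 22.0% of all genes, without Tfeb, Map1lc3b, Becn1, Atp6v0a1 and Atp6v1g1. Fitted on the 6 KO arrays alone, Map1lc3b (limma adjusted p = 0.104), Atg9a (0.0685), Atp6v0a1 (0.136) and Atp6v1g1 (0.0679) did not pass.

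**Figure D3:**
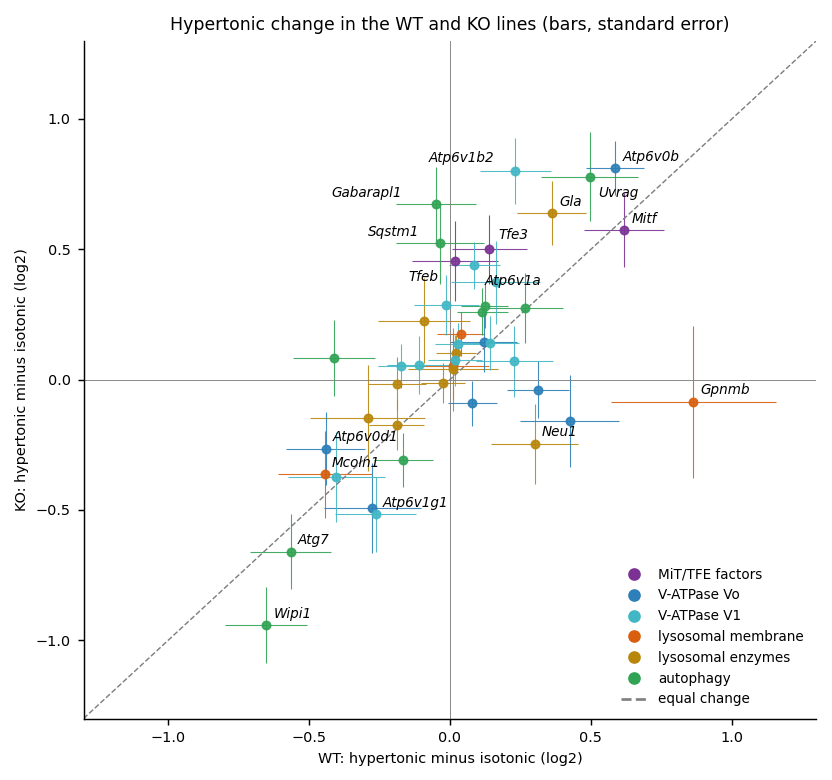
Hypertonic change in KO cells (log2, y axis) against that in WT cells (log2, x axis) for the 45 tested members, coloured by role, with standard errors as bars and a dashed line at equal change. Gabarapl1 lies above the line, at 0.67 in KO and -0.05 in WT cells, and Gpnmb below it, at -0.08 and 0.86.

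Whether the hypertonic effect differed between the lines was tested as a difference of differences. Of the 45 members 1 passed (2.22%), with a higher effect in KO cells, beside 9.50% of all genes (3.35% higher). That member was Gabarapl1, which read 11.92, 11.62 and 11.62 in isotonic and 11.69, 11.50 and 11.83 in hypertonic WT arrays, so that its change was -0.05 ± 0.14 in WT against 0.67 ± 0.14 in KO cells. The difference was 0.72 ± 0.20 (limma adjusted p = 0.0334). It did not pass when hypertonic WT array 2 (0.0993) or isotonic WT array 1 (0.0803), isotonic KO array 2 (0.0883) or 1 (0.0789), or hypertonic KO array 1 (0.0517), 2 (0.0566) or 4 (0.065) was left out. It was also lost after quantile normalization (0.0513) and with isotonic KO array 1 counted as WT (0.0628), and in a fit of only the 4 groups compared (0.0569).

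With the block 5 members differed in their hypertonic effect, beside 14.5% of all genes (5.54% higher and 8.97% lower). The effect was higher in KO cells for Gabarapl1, Sqstm1 (0.56 ± 0.22 without the block, limma adjusted p = 0.0279 with it), Map1lc3a (0.49, 0.0141) and Atp6v1b2 (0.57, 0.0414), and lower for Atp6v0a4 (-0.59, 0.0168). Without the block these 4 had adjusted p of 0.138, 0.158, 0.0596 and 0.173. On centred arrays 6 passed, beside 11.1% of all genes. Of all called genes 67.0% were higher there, against 35.3% on the values as deposited. The 6 members were all higher in KO cells: Gabarapl1, Sqstm1, Map1lc3a, Atp6v1a, Atp6v1b2 and Atp6v1e1. For most other members a difference between the lines was not resolved, since the median 95% interval reached 0.40 to either side. Tfeb (0.44 ± 0.22), Tfe3 (0.36 ± 0.19), Neu1 (-0.55 ± 0.22) and Gpnmb (-0.95 ± 0.41) did not pass, so the calls in KO cells alone do not show a response particular to them. Without the arrays of number 4, 4 members passed, beside 17.9% of all genes.

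The lines were next compared in isotonic medium, before any salt stress. The cathepsins Ctsl and Ctsd and the autophagy gene Uvrag were lower in KO cells, and the cathepsin Ctsz and the V1 head subunit Atp6v1a were higher. These 5 calls are 11.1% of the members beside 14.6% of all genes (7.78% higher and 6.84% lower). Uvrag read 10.21, 10.02 and 10.63 in WT and 9.42, 9.17 and 9.46 in KO arrays, a difference of -0.94 ± 0.17, or 0.522-fold (limma adjusted p = 0.00117). Ctsl, an endopeptidase of the lysosome, read 13.30, 13.20 and 13.25 in WT and 12.23, 12.25 and 12.81 in KO arrays. Every KO array lies below every WT array, and the difference was -0.82 ± 0.16 (limma adjusted p = 0.00241). Ctsd, the main aspartic protease of lysosomes, read 13.12, 13.11 and 13.18 against 12.85, 12.82 and 12.69, a difference of -0.35 ± 0.07 (limma adjusted p = 0.0026).

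Ctsz, a carboxypeptidase, read 12.18, 12.36 and 12.54 in WT and 12.84, 12.75 and 12.75 in KO arrays, a difference of 0.42 ± 0.10 (limma adjusted p = 0.00717). Atp6v1a read 10.99, 10.96 and 10.94 against 11.38, 11.33 and 11.27, a difference of 0.36 ± 0.09 (limma adjusted p = 0.0111). The call of Atp6v1a was lost without isotonic KO array 1 (0.0505), the array with conflicting labels, and the other 4 calls were kept without any 1 array. Fitted on the 6 isotonic arrays alone, Ctsz did not pass (0.0598). With that array counted as WT, although its Thy1 and Rragb levels above lie with the KO arrays, 0 of the 45 members and 0 of all genes were called, with 4 members at an unadjusted p below 0.05 and the differences at -0.76 for Uvrag, -0.47 for Ctsl, -0.31 for Ctsd, 0.27 for Ctsz and 0.23 for Atp6v1a. With the block Mitf (0.41, limma adjusted p = 0.0354) and Atp6v0a4 (0.33, 0.0386) passed as well, beside 20.9% of all genes. The fibroblast marker list moved with the lines too, its mean per array being 12.47 to 12.56 in isotonic KO and 11.43 to 11.88 in isotonic WT arrays. Within it the group means were 10.79 in KO and 6.91 in WT for Thy1, with Pdgfra at 10.96 to 11.74 and 8.67 to 9.27 per array, but lay close together for Col1a1 (13.06 and 13.01) and Vim (13.93 and 13.95). Of markers of other cells, the endothelial Tek had means of 7.87 in isotonic KO and 5.82 in isotonic WT arrays, and 8.47 and 6.04 in hypertonic medium. The epithelial Cdh1 had 8.34 and 6.62 in isotonic medium, and 7.48 and 6.69 in hypertonic medium. Krt19 was also higher in isotonic KO arrays, at 7.05 and 6.37. Isotonic means lay close together for Epcam (5.81 in KO and 5.86 in WT), Krt8 (7.59 and 7.66) and the endothelial Cdh5 (6.23 and 6.14). Per isotonic array the epithelial list mean lay at 6.77 to 7.22 in KO and 6.61 to 6.64 in WT. The endothelial list mean lay at 5.84 to 6.24 and 5.58 to 5.62. The part of any of these cells in the differences between the lines was not tested.

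**Figure D4:**
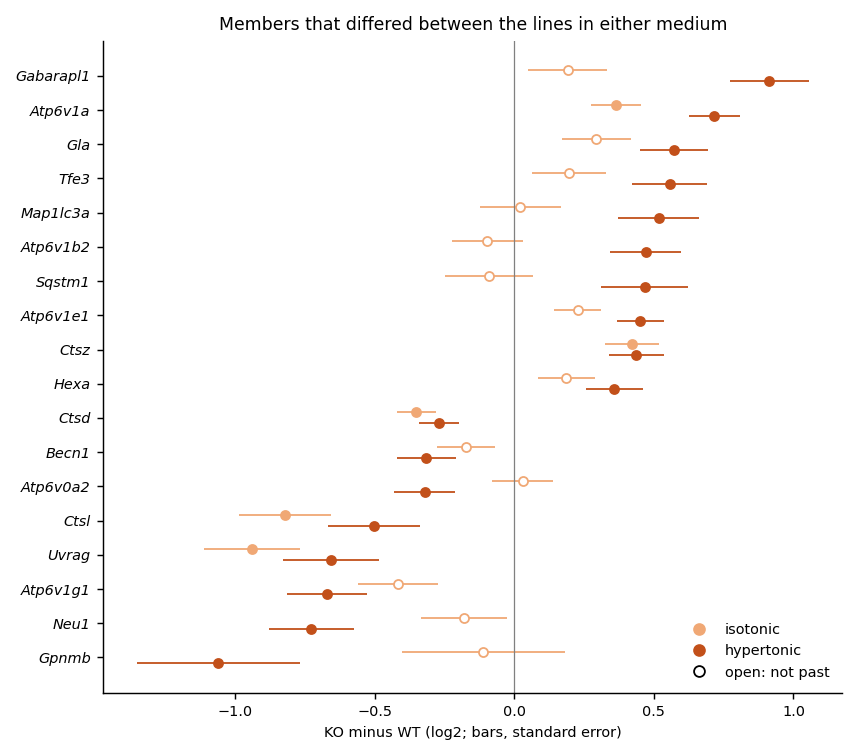
KO minus WT difference (log2, x axis) in isotonic and hypertonic medium for the 18 members called in hypertonic medium, which include all 5 called in isotonic medium. Points are fitted differences with standard errors over 3 arrays per group, open where they did not pass: Gabarapl1 stands at 0.19 in isotonic and 0.91 in hypertonic medium, while Ctsz stands at 0.42 and 0.44.

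In hypertonic medium 18 members differed between the lines, 10 higher and 8 lower in KO cells. They are 40.0% of the members beside 31.9% of all genes (13.8% higher and 18% lower), and this comparison shares its KO arrays with the hypertonic effect in KO cells. On centred arrays 18 were higher and 4 lower, so the higher share of called members went from 55.6% to 81.8%. The higher share of all called genes moved likewise, from 43.4% to 72.2%. On centred arrays Ctsd (-0.09, limma adjusted p = 0.306), Ctsl (-0.33, 0.135), Becn1 (-0.14, 0.256) and Atp6v0a2 (-0.15, 0.235) were no longer lower. Tfe3 was higher in KO cells by 0.56 ± 0.13 (limma adjusted p = 0.00457), at 11.20, 11.33 and 10.90 against 10.80, 10.61 and 10.35. With the block Tfeb (0.31, limma adjusted p = 0.0356) and Mitf (0.36, 0.0368) passed too, among 22 members beside 39.1% of all genes. Fitted on the 6 hypertonic arrays of both lines alone, Ctsd (limma adjusted p = 0.066), Ctsl (0.0884), Hexa (0.0525), Becn1 (0.0564) and Atp6v1b2 (0.0516) did not pass.

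Among the pump subunits in hypertonic medium, Atp6v1a was higher in KO cells by 0.72 ± 0.09, or 1.64-fold (limma adjusted p = 2.62e-05), at 11.63, 11.80 and 11.86 against 11.12, 11.01 and 11.02. Atp6v1e1, a stalk subunit of V1, was higher by 0.45 ± 0.08 (limma adjusted p = 0.000707), at 10.70, 10.59 and 10.77 against 10.37, 10.19 and 10.16. Atp6v1b2 was higher by 0.47 ± 0.13 (limma adjusted p = 0.00968), and by 0.27 without the arrays of number 4 (0.0688). Atp6v1g1 was lower by a difference of -0.67 ± 0.14 (limma adjusted p = 0.00207), at 9.92, 9.79 and 10.42 against 10.66, 10.69 and 10.79. Its other probe set gave -0.10, and the mean of both -0.38 (limma adjusted p = 0.0349). The difference of Atp6v0a2 was -0.32 ± 0.11 (limma adjusted p = 0.0339), while its other probe set gave 0.20. The mean of its probe sets gave -0.06 (limma adjusted p = 0.648). It did not keep its call without hypertonic WT array 1 (0.0743), 2 (0.0677) or 4 (0.0752) or hypertonic KO array 2 (0.109) or 4 (0.0671). With the block Atp6v0d1 (0.28, limma adjusted p = 0.0305) and Atp6v1b1 (0.24, 0.034) passed as well. Atp6v1b1 lay close to the level for testing, at 6.42 to 6.67 in KO and 6.15 to 6.44 in WT arrays, which overlap.

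Enzyme genes differed in both directions in hypertonic medium, with 3 higher and 3 lower of 9. Of all genes 13.8% were higher and 18% lower in this comparison. Neu1, the sialidase of lysosomes, read 8.69, 8.34 and 8.79 in KO and 9.27, 9.45 and 9.27 in WT arrays, a difference of -0.73 ± 0.15, or 0.604-fold (limma adjusted p = 0.00191). Gla was higher in KO cells by 0.57 ± 0.12 (limma adjusted p = 0.00214) and Ctsz by 0.44 ± 0.10 (0.00282). Hexa, a subunit of beta-hexosaminidase, was higher by 0.36 ± 0.10 (limma adjusted p = 0.0143), but not without hypertonic WT array 2 (0.0527) or hypertonic KO array 4 (0.0578). Ctsd differed by -0.27 ± 0.07 (limma adjusted p = 0.00843). Ctsl read 12.38, 12.50 and 13.09 in KO and 13.15, 13.13 and 13.19 in WT arrays, a difference of -0.50 ± 0.16 (limma adjusted p = 0.0286). Ctsl lost its call without hypertonic WT array 1 (0.0585), 2 (0.0623) or 4 (0.0688) or hypertonic KO array 1 (0.142) or 2 (0.111).

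Gpnmb read 7.46, 7.49 and 7.83 in hypertonic KO and 8.60, 8.99 and 8.37 in hypertonic WT arrays. It was lower in KO cells by a difference of -1.06 ± 0.29, or 0.480-fold (limma adjusted p = 0.0112, and 0.0574 without hypertonic WT array 2). The macrophage marker Csf1r lay at 7.08 to 7.54 in hypertonic KO and 8.31 to 9.01 in hypertonic WT arrays, and the osteoclast marker Itgb3 at 7.09 to 7.71 and 8.68 to 10.24. The mean of the macrophage list lay at 6.57 to 6.65 in KO and 6.42 to 6.65 in WT arrays. That of the osteoclast list lay at 6.59 to 6.76 and 6.54 to 7.03. Some markers of the same lists went the other way. Lyz2 had group means of 6.26 in KO and 5.68 in WT arrays, Itgam 7.01 and 6.59, and Oscar 7.45 and 6.99. The part of other cells in the difference of Gpnmb was not tested.

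Among autophagy genes in hypertonic medium, Gabarapl1 showed the widest rise over WT of any member, by 0.91 ± 0.14, or 1.88-fold (limma adjusted p = 0.000166), with KO arrays at 12.50, 12.51 and 12.75 and WT arrays at 11.69, 11.50 and 11.83. Uvrag was lower in KO cells by a difference of -0.66 ± 0.17 (limma adjusted p = 0.00816), at 10.11, 10.13 and 10.14 against 11.03, 10.52 and 10.80. Its level rose with salt in KO cells and yet stayed below every WT array in hypertonic medium. Map1lc3a was higher by 0.52 ± 0.14 (limma adjusted p = 0.0123), but not without hypertonic WT array 4 (0.0577) or hypertonic KO array 1 (0.0624). Sqstm1 was higher by 0.47 ± 0.16 (limma adjusted p = 0.0316). Sqstm1 lost its call without hypertonic WT array 2 (0.0632) or 4 (0.136) or hypertonic KO array 1 (0.0636), 2 (0.0799) or 4 (0.068). Becn1 differed by -0.31 ± 0.10 (limma adjusted p = 0.0311). That call was lost without hypertonic WT array 1 (0.066) or 4 (0.0957), hypertonic KO array 1 (0.117) or 2 (0.0539), or all arrays of number 4 (0.0918).

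Other genes of these compartments were read from 4 lists, 132 tested genes that are no members. In hypertonic WT cells 14 of them passed, 6 higher and 8 lower (10.6%, beside 8.24% of all genes). In KO cells 45 passed, 21 higher and 24 lower (34.1%, beside 30.1%), and between the lines in hypertonic medium 48, 21 higher and 27 lower (36.4%, beside 31.9%). In hypertonic WT cells with Torin1, 6 passed (4.55%, beside 3.37%), and between the lines in isotonic medium 16 (12.1%, beside 14.6%).

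Among 48 other autophagy genes, 14 rose and 8 fell in hypertonic KO cells, with a median change of 0.04, where 12.9% of all genes rose and 17.2% fell. On centred arrays 21 rose and 7 fell, as the higher share of all called genes went from 42.9% to 70.4%. Ulk1, the kinase that starts autophagy under mTORC1 control, read 9.86, 9.73 and 9.97 in isotonic and 10.91, 10.94 and 10.71 in hypertonic KO arrays, a rise of 1.00 ± 0.11 (limma adjusted p = 1.22e-05). Plekhm1, an adaptor for fusion of autophagosomes with lysosomes, read 9.29, 9.03 and 9.14 against 10.33, 10.31 and 10.16, a rise of 1.11 ± 0.13 (limma adjusted p = 2.27e-05). In both genes every hypertonic KO array lies above all the other arrays of the series. Atg10, a conjugating enzyme, fell by 1.21 on the log2 scale in KO cells and by 1.20 in WT cells. Atg16l1, which places LC3 on membranes, rose by 0.54 in WT cells (limma adjusted p = 0.0038).

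Of 35 other hydrolases and activators, 2 rose and 4 fell in hypertonic WT cells, and 1 rose and 6 fell in KO cells. Over all genes 3.94% rose and 4.30% fell in WT cells, and 12.9% and 17.2% in KO cells. Ppt2, a lysosomal thioesterase, read 9.98, 9.97 and 10.00 in isotonic and 11.03, 11.13 and 10.83 in hypertonic WT arrays, a rise of 1.01 ± 0.14 (limma adjusted p = 0.000772). In KO cells it read 9.26, 9.27 and 9.61 and then 9.22, 9.06 and 9.48, and its hypertonic effect differed from that in WT cells by -1.14 ± 0.20 (limma adjusted p = 0.00277). Arsa, the sulfatase lost in metachromatic leukodystrophy, fell by 0.80 in WT cells (limma adjusted p = 0.00188). Pla2g15, a lysosomal phospholipase, read 10.89, 10.55 and 10.86 in isotonic KO and 9.79, 9.55 and 9.59 in isotonic WT arrays, a difference of 1.12 ± 0.13 (limma adjusted p = 1.2e-05). Of 24 other membrane and sorting genes 1 rose and 4 fell in KO cells, among them the amino acid sensor gene Slc38a9 (-0.87 ± 0.17, limma adjusted p = 0.000926).

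Of 25 genes for the docking of mTORC1 at the lysosome, 5 rose and 6 fell in hypertonic KO cells, and 1 rose and 1 fell in WT cells. Over all genes 12.9% rose and 17.2% fell in KO cells, and 3.94% and 4.30% in WT cells. Rragb, a GTPase that brings mTORC1 to the lysosome, read 9.20, 8.83 and 8.81 in isotonic WT and 5.72, 5.06 and 5.50 in isotonic KO arrays. The difference was -3.52 ± 0.19 (limma adjusted p = 3.3e-09), and its KO group means lie below the level for testing, so the size of the difference is limited by the background of the array. Rragd, a partner GTPase, read 7.74, 7.56 and 7.25 against 6.51, 6.35 and 6.27, a difference of -1.14 ± 0.18 (limma adjusted p = 0.000315). With isotonic KO array 1 counted as WT the adjusted p were 0.128 for Rragb and 0.138 for Rragd, and 0.224 for Pla2g15. For both genes WT and KO arrays are separated in isotonic and in hypertonic medium. Nprl2, part of a complex that holds back mTORC1 when amino acids are short, rose by 0.82 ± 0.10 in hypertonic WT cells (limma adjusted p = 0.000561), by 0.77 with Torin1 (0.00126) and by 0.52 in KO cells (0.00128).

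**Figure D5:**
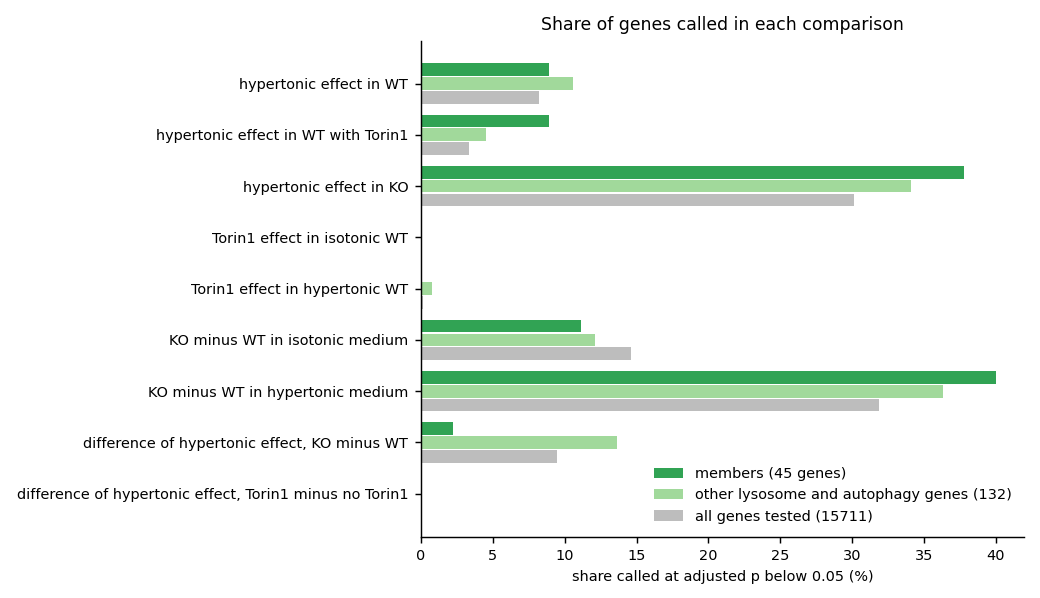
Share of genes called at a limma adjusted p below 0.05 (x axis, percent, from 0) in each of the 9 comparisons, for the 45 members, the 132 other lysosome and autophagy genes and all 15711 tested genes. In hypertonic KO cells the shares are 37.8%, 34.1% and 30.1%, and for the difference of the hypertonic effect between the lines 2.22%, 13.6% and 9.50%.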

How the data were processed

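Total RNA of 18 fibroblast samples was labelled and hybridised to 1-colour whole-transcript Affymetrix arrays, per the labels. The deposited values are log2 levels made by the authors with RMA in R 2.11.1, per the submitters' processing notes. RMA corrects background and equalises arrays, so shifts common to most genes are removed. The sources used here name no genome build for the probe sets. Of 34760 probe sets 21640 name 1 gene, 1321 several and 11799 none, and only the first were used.

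limma 3.58.1 in R 4.3.3 fitted all 18 arrays with a mean for each group, leaving 12 residual degrees of freedom, with 9 contrasts and Benjamini-Hochberg adjustment over 15711 genes in each. The fit was checked on simulated data with independent arrays and planted changes larger than those of most members. That check covers neither arrays that deviate together nor smaller changes. All members are accounted for, members called are named in each comparison, and up to 3 called genes per direction from each other list. Members and lists were chosen with earlier results of these data known. Arrays of the same number deviated together in each compared pair of groups, with correlations from 0.156 to 0.847 over the genes. Among all arrays, those of the same number correlated at 0.0945 to 0.847 and those of different numbers at -0.782 to 0.624. Of the 18 arrays, 15 lay closest to their own number, so the numbers pair most arrays by the data, but not all. The labels do not say what they stand for. A fit with the number as a block is given where it changes a call. Other alternatives are the filter, the probe set rule, centring, quantile normalization, the groups fitted, isotonic KO array 1 as WT and each array left out, and, added after seeing the data, all arrays of number 4 left out. Promoters are RefSeq's on GRCm38.p6. Some genes of the lists were not analysed here. The number of arrays limits the precision.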

Additional observations from a re-analysis of the deposited data

Results flagged for a closer look

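The hypertonic effect differed between the KO and WT lines, by a direct test with limma, for 1 of 45 members (2.22%) and for 18 of the 132 genes of the other lists (13.6%), 9 in each direction, beside 9.50% of all genes. Of the 18, 14 are named here. The values are the KO effect minus the WT effect on the log2 scale, and causes were not tested. Gabarapl1, of the LC3 family, differed by 0.72. The lysosomal protease gene Ctsk differed by 0.75, and Idua and Ppt2, 2 other hydrolase genes, by -1.47 and -1.14. The lysosomal membrane gene Tmem192 differed by -0.71. Among autophagy genes Rb1cc1 differed by 1.17, Plekhm1 by 0.87 and Atg14 by 0.86. Atg4c, Pik3r4 and Stx17 differed by -1.31, -0.75 and -0.66. Fnip1, a partner of folliculin, differed by 1.03, and Nprl3, Wdr24 and Depdc5, whose products regulate mTORC1 by amino acids, by -1.15, -0.70 and -0.69.

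Some of these calls rest on single arrays. Without hypertonic WT array 2 the limma adjusted p was 0.0993 for Gabarapl1, 0.104 for Ctsk, 0.0527 for Idua, 0.132 for Tmem192, 0.067 for Rb1cc1, 0.0993 for Stx17 and 0.051 for Wdr24. Gabarapl1 was also lost without isotonic WT array 1 (0.0803), isotonic KO array 1 (0.0789) or 2 (0.0883) or hypertonic KO array 1 (0.0517), 2 (0.0566) or 4 (0.065). Idua, too, did not pass without hypertonic KO array 1 (0.0525) or isotonic WT array 2 (0.0509). Rb1cc1 was also lost without array 1 (0.0786) or 2 (0.0792) of isotonic WT, hypertonic WT array 4 (0.0701), isotonic KO array 1 (0.0652) or 2 (0.086) or hypertonic KO array 1 (0.0745) or 2 (0.0601). Stx17 was also lost without array 2 (0.0672) or 4 (0.0755) of isotonic WT, hypertonic WT array 4 (0.062), isotonic KO array 1 (0.0914) or 2 (0.0524) or hypertonic KO array 2 (0.0642) or 4 (0.0658). Ctsk was also lost without isotonic WT array 1 (0.0768) or 4 (0.0812), isotonic Torin1 array 2 (0.0505), hypertonic WT array 1 (0.0519) or 4 (0.0514), isotonic KO array 1 (0.059), 2 (0.0933) or 4 (0.0565) or hypertonic KO array 2 (0.102) or 4 (0.0764). Tmem192, at a limma adjusted p of 0.0494, was also lost without isotonic WT array 2 (0.0866) or 4 (0.115), isotonic Torin1 array 1 (0.0621) or 2 (0.0607), hypertonic WT array 1 (0.0745), hypertonic Torin1 array 1 (0.0629), 2 (0.0604) or 4 (0.0552), isotonic KO array 1 (0.0983), 2 (0.0827) or 4 (0.0824) or hypertonic KO array 1 (0.111) or 2 (0.134). With isotonic KO array 1 counted as WT, Gabarapl1 (limma adjusted p = 0.0628), Idua (0.059), Tmem192 (0.0934), Rb1cc1 (0.284), Stx17 (0.234) and Wdr24 (0.0945) did not pass. On centred arrays Stx17 (-0.50, limma adjusted p = 0.0646) and Tmem192 (-0.54, 0.121) did not pass.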

How the results depend on the processing

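Counts of called members moved by over 1.5 times in these cases, whose cause was not tested. With the replicate block 10 members passed for the hypertonic effect in WT, 3 for Torin1 in hypertonic WT and 5 for the difference of effects between the lines, and apart from the calls given above the block changed none. Fitted on only the groups compared, 1, 0 and 0 members passed for the hypertonic effect in WT, the same with Torin1, and the difference between the lines. Of all genes 1.70%, 0.146% and 7.22% passed in these fits. With isotonic KO array 1 counted as WT, 0 passed between the lines in isotonic medium and 0 for the difference, the latter beside 4.86% of all genes. For that difference 6 passed on centred arrays and 0 after quantile normalization, beside 11.1% and 9.68% of all genes. Without the arrays of number 4, chosen after seeing the data, 13, 4 and 4 passed for the hypertonic effect in WT, Torin1 in hypertonic WT and the difference. Of all genes 21.2% passed there for the hypertonic effect in WT and 17.9% for the difference, while the share for Torin1 is not given here. With single arrays left out, counts ranged from 2 to 6 for the hypertonic effect in WT, 1 to 5 with Torin1, 11 to 18 in KO, 0 to 1 for Torin1 in hypertonic WT, 5 to 7 and 13 to 19 between the lines in isotonic and hypertonic medium, and 0 to 2 for the difference. They stayed at 0 for Torin1 in isotonic WT and for its effect on the hypertonic change. Gabarapl2, no member, reversed from 0.28 in hypertonic WT cells to -0.028 with the mean of its probe sets. Of 4289 single-gene values under alternatives 3878 kept direction and side of the threshold, 339 lost and 71 gained it. Fits with 1 array left out gave 2607, 236 and 19 of these. An array outside a comparison cannot move its change, only the shared spread, so part of this stability was built in.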
